A study of Homo sapiens with 6 samples.

Results

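Keratins are the intermediate filament proteins of epithelial cells. A type I (acidic) keratin pairs with a type II (basic or neutral) keratin, and the pairs assemble into filaments that are anchored to desmosomes. In the pancreas KRT8 and KRT18 form the common pair of simple epithelium, while duct cells also carry KRT19 and KRT7, and pathologists use these genes to tell duct-derived tumours from others. The 10 keratin genes described here were taken by name from a table of 18268 gene rows. They are the type II genes KRT7, KRT8, KRT80 and KRT81 and the type I genes KRT10, KRT15, KRT17, KRT18, KRT19 and KRT20. Each had 1 row, and KRT8 shared its row with KRT78, an epidermal type II keratin, so that the value of the joined row KRT8;KRT78 cannot be assigned to KRT8 alone.

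RNA sequencing was done on MIA PaCa-2, an established human pancreatic carcinoma line that the labels call epithelial. The cells carried the vector pCDH (3 libraries) or overexpressed the long noncoding RNA LINC00901 (3 libraries), and both groups grew in DMEM with 10% fetal bovine serum and 2.5% horse serum. The labels give no promoter, clone or batch, and they do not state that replicates came from different cultures. The p-values thus reflect the scatter of these libraries alone, which may be technical. Values are FPKM, fragment counts scaled by gene length and by library total, and the depth behind them is unknown. They summed to between 87162 and 88738 in the vector libraries and to between 127768 and 128538 in the overexpression libraries, and 0 rows named LINC00901, so the overexpression itself was not checked here. All 13 rows of mitochondrially encoded genes, which cells use at high level, were listed at 0 in every library, so a 0 can be a failed estimate and is given only as listed at 0.

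Keratin genes have many processed pseudogenes and close relatives, which bears on how far reads can be assigned. The first 60 coding bases of KRT18, the keratin of highest level, are shown with the closest stretch found among the searched pseudogenes named after it. Pseudogenes on a single chromosome were left out of this search, and equally close stretches were not listed. The start codon is in capitals in the gene, and bases that differ from the gene would be in capitals in the pseudogene. Sequences and positions are from GENCODE 29 on GRCh38, 5′ to 3′, while the authors aligned to hg19.
KRT18 (chr12:52949174-52949233, plus strand, coding exon): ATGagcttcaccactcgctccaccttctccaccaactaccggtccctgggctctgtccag
KRT18P20 (chr12:104977968-104978027, minus strand, pseudogene): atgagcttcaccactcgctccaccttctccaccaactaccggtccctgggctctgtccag

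Over these 60 bases KRT18P20 differed from KRT18 at 0 positions. GENCODE 29 names 68 pseudogenes after KRT18, 50 after KRT8 and 5 after KRT19, and 0 of them had a row in the table. Of all stretches of 50 bases in the principal transcript, 47.6% in KRT18 and 36.9% in KRT8 also occur, on either strand, in a transcript of another gene, against 1.8% in KRT19. At 100 bases the shares were 16.6%, 7.7% and 0.0%. All 243 shared stretches of 100 bases in KRT18 were in KRT8 transcripts. Of the pseudogenes named after KRT18, 43 held a shared stretch of 50 bases and 0 held a shared stretch of 100. KRT8 and KRT18 also overlap each other on opposite strands, and KRT8 transcripts hold 326 of the 720 shared stretches of 50 bases in KRT18. The sources used here do not say whether counting used strand, so reads from the overlap cannot be told apart. The values of KRT8 and KRT18 are therefore less certain than those of KRT19, and how far this bears on the results was not tested.

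In MIA PaCa-2 cells of both groups KRT18 was far above every other keratin, and LINC00901 overexpression went with a higher KRT19 and a lower KRT18 and KRT8;KRT78. Of the 10 genes, 5 averaged 1 FPKM or more and were tested, and the other 5 lay below. In a limma fit over all 9694 tested rows, 1 of the 5 was higher (KRT19) and 2 were lower (KRT18 and KRT8;KRT78) at a Benjamini-Hochberg adjusted p under 0.05. Among all tested rows 49.2% passed, 37.4% higher and 11.9% lower, so a call as such is common in this comparison. The median tested row was itself higher by 0.27 on the log2(FPKM + 0.5) scale, while the median of the 5 keratins was 0.00. After each library was centred on its median row, 24.0% of rows passed as higher and 19.2% as lower, and the same 3 keratins passed in the same directions.

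**Figure D1:**
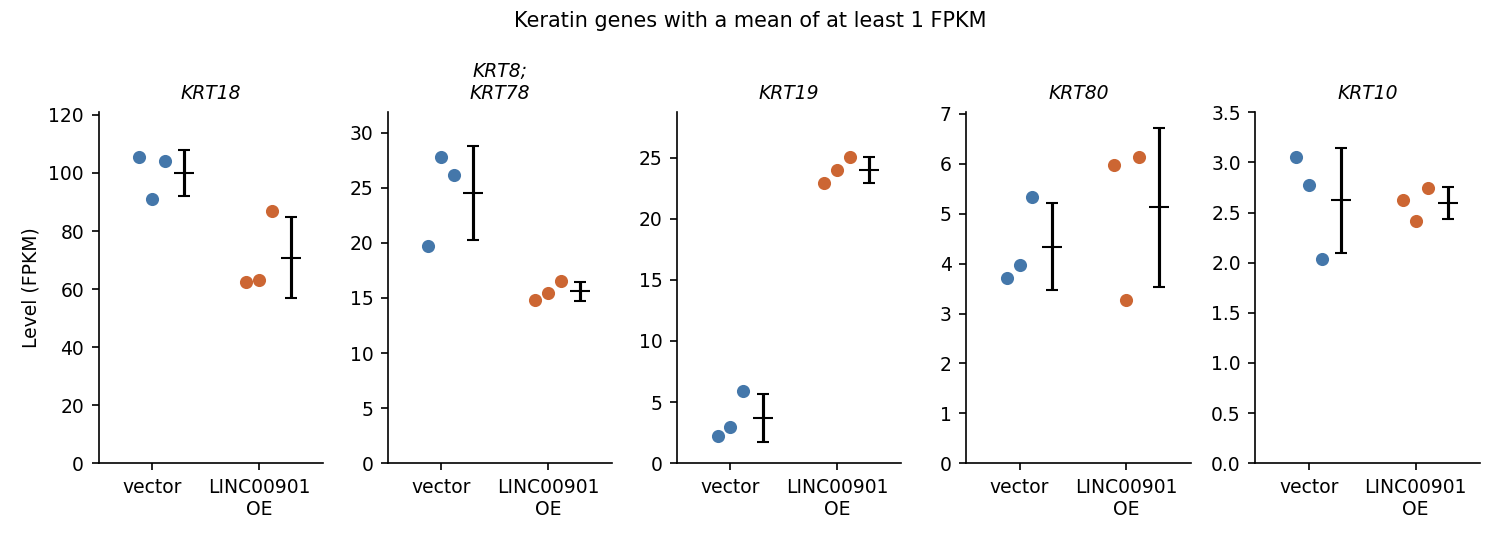
Level in FPKM (vertical axes, each from 0 and on its own scale) of the 5 tested keratin rows in each library of the vector and LINC00901 overexpression (OE) groups. Points are libraries and the bar beside them is the mean ± SD (n = 3). KRT18 and KRT8;KRT78 lie lower and KRT19 higher in all 3 overexpression libraries, while the groups overlap for KRT80 and KRT10.

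KRT19 is the smallest type I keratin and a marker of pancreatic duct cells. It stood at 2.22, 2.98 and 5.92 FPKM in vector replicates 1, 2 and 3, against 22.89, 23.95 and 25.02 FPKM with overexpression. The groups did not overlap, and the vector libraries varied more, with the third more than 2-fold above the first. The means were 3.71 ± 1.95 and 24.0 ± 1.06 FPKM (SD, n = 3). The log2 change was 2.64 ± 0.29 (SE), a 6.22-fold rise on the log2(FPKM + 0.5) scale, and 2.37 relative to the median row (limma adjusted p = 0.000654, and 0.00111 after median centring). Its change exceeded that of 99.8% of tested rows. KRT19 passed in each of 19 alternative settings, with log2 changes from 2.05 to 2.99.

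KRT18 is the type I keratin of the simple epithelial pair. With the vector it stood at 105.38, 90.93 and 103.99 FPKM, and with LINC00901 overexpression at 62.48, 62.96 and 86.92 FPKM. All overexpression values lay below all vector values, but the third was close to the lowest vector library. KRT18 fell from 100.1 ± 7.97 to 70.8 ± 14.0 FPKM (SD, n = 3), a log2 change of -0.51 ± 0.14 (SE) and -0.78 relative to the median row (limma adjusted p = 0.0219, and 0.00652 after median centring). This call depended on single libraries. Leaving out vector replicate 1 gave a limma adjusted p of 0.0639 (log2 change -0.47), and leaving out vector replicate 3 gave 0.0617 (-0.48). Leaving out overexpression replicate 1 gave 0.0672 (-0.43), and overexpression replicate 2 gave 0.0676 (-0.44). Scaling mattered for the size: the KRT18 change was -1.06 with each library scaled to its FPKM sum and -1.31 with quantile normalization.

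The KRT8;KRT78 row, which holds the type II partner of KRT18, had 19.70, 27.76 and 26.19 FPKM with the vector, against 14.82, 15.42 and 16.56 FPKM with overexpression. Again the groups did not overlap, with vector replicate 1 nearest to the overexpression values. It fell from 24.6 ± 4.27 to 15.6 ± 0.884 FPKM (SD, n = 3), a log2 change of -0.62 ± 0.14 (SE), or 1.54-fold lower, and -0.89 relative to the median row (limma adjusted p = 0.00960, and 0.00364 after median centring). The call was kept in each of 18 alternative settings that tested KRT8;KRT78, with limma adjusted p from 0.000978 to 0.0331. With each library scaled to its FPKM sum the log2 change was -1.16. Leaving out rows that join several names removes this row, so no value for KRT8 alone could be had.

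KRT80, a type II keratin found in many epithelia, and KRT10, a type I keratin of the upper epidermis, did not pass. KRT80 levels were 3.71, 3.97 and 5.33 FPKM with the vector, against 5.97, 3.28 and 6.13 FPKM with overexpression, so that overexpression replicate 2 was the lowest library of all. Its log2 change was 0.19 ± 0.25 (SE; limma adjusted p = 0.553), and it was -0.02 after median centring. KRT10 levels were 3.05, 2.77 and 2.04 FPKM against 2.62, 2.42 and 2.74. The overexpression libraries lay inside the range of the vector libraries, with a log2 change of 0.00 ± 0.15 (SE; limma adjusted p = 0.998) that became -0.21 after median centring. The sign of the KRT80 and KRT10 changes therefore depends on the scaling. KRT10 lies across TMEM99 on the opposite strand, which had a row of its own at 2.20 to 3.14 FPKM in the vector and 3.26 to 3.87 FPKM in the overexpression libraries.

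FPKM is scaled by gene length, so levels of different genes can be ordered, within the limits of read assignment given above for KRT8 and KRT18. In the vector libraries KRT18 was highest and KRT8;KRT78 next, and neither overlapped its neighbour. KRT80, KRT19 and KRT10 followed, at means of 4.34, 3.71 and 2.62 FPKM, and neighbours among them overlapped. In the overexpression libraries KRT19 stood between KRT18 and KRT8;KRT78 without overlapping either.

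Ratios inside a library do not depend on how libraries are scaled to each other. The ratio of KRT18 to KRT8;KRT78 FPKM was 5.35, 3.28 and 3.97 in the vector libraries and 4.22, 4.08 and 5.25 in the overexpression libraries, so the ranges overlapped. The log2 difference of KRT8;KRT78 from KRT18 moved by -0.11 (exact permutation p = 0.70, adjusted over 4 members 0.70). KRT19 and KRT8;KRT78 changed places: the ratio of KRT19 to KRT8;KRT78 was 0.113, 0.107 and 0.226 in the vector libraries and 1.54, 1.55 and 1.51 in the others. Against KRT18, KRT19 rose from a log2 difference of -4.67 ± 0.630 to -1.53 ± 0.217 (SD, n = 3), by 3.15. Unlike the plain ratios, the log2 differences used FPKM + 0.5 and so depend somewhat on scale for genes of low level. For KRT19 the rise was 2.99 with a pseudocount of 1 and 3.29 with 0.1. KRT80 and KRT10 were also higher relative to KRT18 in every overexpression library than in any vector library, by 0.70 and 0.51. KRT18 itself fell, and its change exceeded that of only 10.4% of tested rows. Most tested rows thus rose relative to KRT18, so these shifts are not particular to KRT80 and KRT10. For KRT19, KRT80 and KRT10 the two-sided exact permutation p was 0.10 (adjusted 0.133), the smallest that 3 libraries against 3 allow, so this test cannot pass 0.05.

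**Figure D2:**
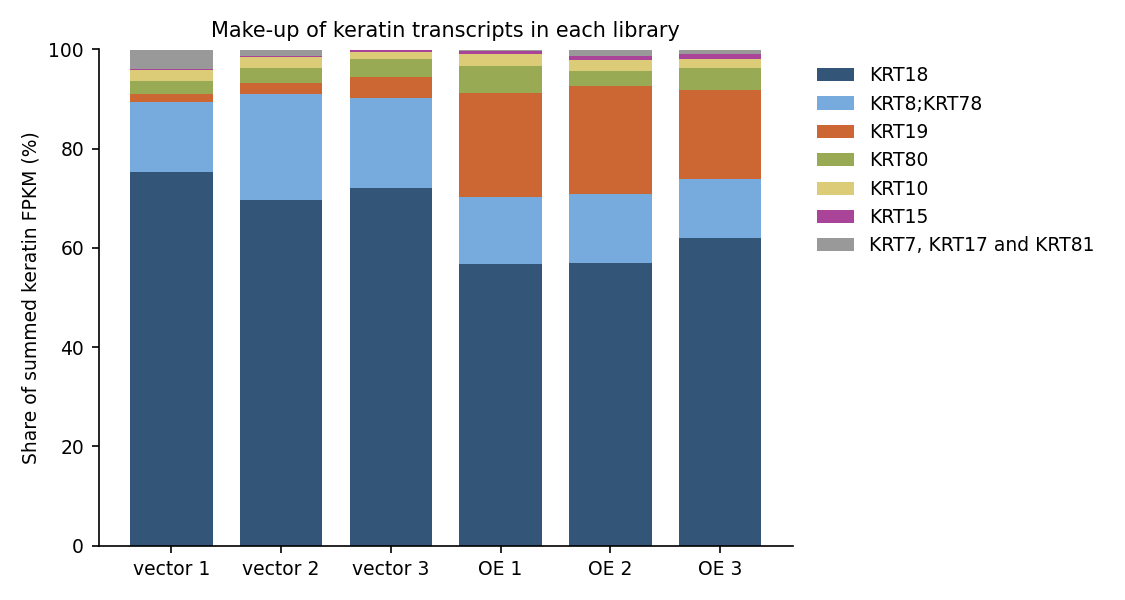
Share of each keratin in the summed FPKM of the 53 rows that hold keratin names only (vertical axis, percent), with 1 stacked bar per library. KRT19 takes 1.59% to 4.10% of the vector bars and 17.9% to 21.7% of the overexpression (OE) bars, and KRT18 takes less of each overexpression bar than of any vector bar.

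The same values as shares show how the keratin pool was made up. KRT18 took 75.4%, 69.7% and 72.1% of the summed keratin FPKM in the vector libraries and 56.8%, 57.0% and 62.1% in the overexpression libraries. The KRT19 share was 1.59%, 2.28% and 4.10% against 20.8%, 21.7% and 17.9%, and the KRT8;KRT78 share 14.1%, 21.3% and 18.2% against 13.5%, 14.0% and 11.8%. None of these 3 shares overlapped between the groups, and each had an exact permutation p of 0.10, the smallest possible (adjusted over 9 shares 0.225). The share of KRT15 did not overlap either, at 0.276% ± 0.0783 against 0.833% ± 0.0647 (SD, n = 3). Shares of the same pool are tied, because a larger KRT19 share lowers the others together. The mean KRT19 share changed by 17.5 percentage points, KRT18 by -13.8 and KRT8;KRT78 by -4.75, so these are not 3 separate results. The summed keratin level itself was 139.85, 130.51 and 144.22 FPKM against 109.94, 110.53 and 140.03, which overlapped. As a share of the FPKM sum of each library it was 0.150% to 0.163% in the vector and 0.0855% to 0.110% in the overexpression libraries. Those FPKM sums were themselves higher with overexpression. With each library scaled to its sum, the median tested row changed by -0.22 and 3345 of 9694 rows passed as lower. A lower share of the sum is thus common in this comparison. In bulk libraries like these, fewer cells with a keratin and less of its RNA per cell cannot be told apart.

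The other 5 keratins averaged below 1 FPKM and were not tested. KRT15, a type I keratin of basal and progenitor cells, had 0.26, 0.43 and 0.45 FPKM with the vector and 0.84, 0.93 and 1.25 FPKM with overexpression, without overlap. Beside this untested gene, 3 of the 5 tested keratins had groups that did not overlap, 1 with higher (KRT19) and 2 with lower overexpression values. Among all tested rows 60.6% did not overlap, 44.9% with higher and 15.6% with lower overexpression values, so the share of keratins was near the background. In the fit with no filter on low values KRT15 had a log2 change of 0.77 and a limma adjusted p of 0.0110. KRT15 is the neighbour of KRT19 on chromosome 17, on the same strand, and the higher KRT15 stands beside the higher KRT19. Of the 5188 stretches of 50 bases in KRT15, 17 also occur in another gene, and all 17 of these are in KRT13. Whether reads from KRT19 contributed was not tested.

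KRT17, a type I keratin of basal and stressed epithelium, was listed at 3.05 FPKM in vector replicate 1, at 0.04 in overexpression replicate 1 and at 0 in the other 4 libraries, so that 1 library carries its whole level. KRT7, the type II keratin of ducts, was at 1.03, 0.41 and 0.18 FPKM against 0.11, 0.49 and 0.42. KRT81, a hair keratin, was listed at 1.31, 1.13 and 0 FPKM against 0, 0.87 and 0.64. The groups overlapped for all 3 of these genes. With no filter on low values their limma adjusted p was 0.395 for KRT17, 0.582 for KRT7 and 0.715 for KRT81. KRT20, the type I keratin of intestinal epithelium, was listed at 0 in all 6 libraries. KRT81 shares 44.6% of its stretches of 50 bases with other genes, mostly its near copy KRT86, which was listed at up to 0.15 FPKM, and KRT17 shares 16.0%, in part with its pseudogenes.

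**Figure D3:**
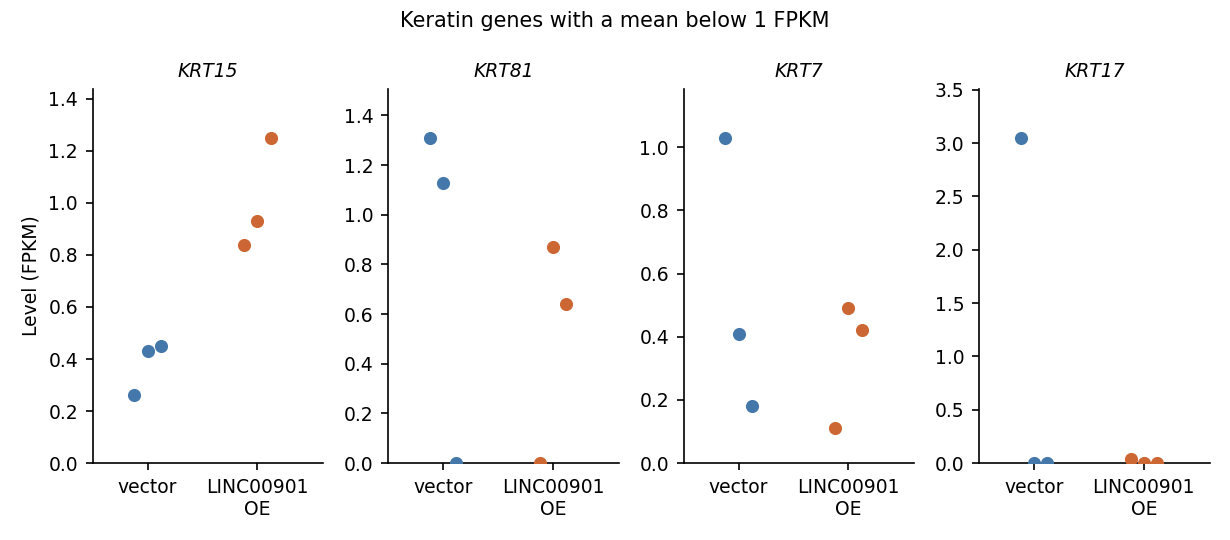
Level in FPKM (vertical axes, each from 0 and on its own scale) of the 4 keratins with a mean below 1 FPKM that were above 0 in some library. Points are libraries of the vector and LINC00901 overexpression (OE) groups. KRT15 separates the groups, KRT81 and KRT7 overlap, and KRT17 is near 0 in all but vector replicate 1.

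Other keratins were listed at or near 0. Beside the 10 genes, 43 rows named a single other keratin, and 38 of them were listed at 0 in all 6 libraries. The remaining 5 (KRT12, KRT13, KRT16, KRT35 and KRT86) never exceeded 0.16 FPKM. KRT5, KRT14, KRT6A and KRT6B, the keratins of basal and squamous cells, were all listed at 0, as were DSG3, IVL and SPRR1B of the same list of 8 markers, while TP63 was at no less than 3.41 FPKM in any library. The joined row SMARCE1;KRT222, whose value cannot be assigned to a keratin, had a log2 change of -0.23 (limma adjusted p = 0.193), with an adjusted p of 0.0351 after median centring and 0.00682 with each library scaled to its FPKM sum.

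The epithelial label was checked against 12 markers. CLDN3, GRHL2 and OVOL1 were among those listed at 0 in all libraries, CDH1 (E-cadherin) reached at most 0.08 FPKM and EPCAM at most 0.14. The summed level of all 12 was 15.52 to 24.76 FPKM in the vector and 25.42 to 56.95 FPKM in the overexpression libraries, but most of it came from joined rows and from CLDN4, which was listed at 0.28 FPKM in overexpression replicate 3 and at 20.61 and 28.28 FPKM in the other two. Of 3 tested rows 1 was higher, the joined row CTDNEP1;GABARAP;CLDN7, against 37.4% of all tested rows. Among untested epithelial markers ESRP2 was lower, at 0.40, 0.57 and 0.24 FPKM with the vector against 0.11, 0.05 and 0.05. ELF3, also untested, was higher, at 0.26, 0.35 and 0.22 FPKM against 0.61, 0.96 and 0.71. Neither overlapped between the groups. Of the 7 duct markers 2 were tested, and 1 was higher and 0 lower, against 37.4% and 11.9% of all tested rows. That one was SOX9, a transcription factor of duct cells, at 15.85, 8.19 and 3.08 against 30.80, 27.53 and 35.48 FPKM (log2 change 1.99, limma adjusted p = 0.0155). The joined row KRTCAP2;MUC1 did not pass (limma adjusted p = 0.0517). Among untested duct markers CFTR, an ion channel, was listed at 0, and the joined row of AQP1, a water channel, had 0.88, 0.88 and 0.84 FPKM against 0.62, 0.49 and 0.57.

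Of the 7 mesenchymal markers 3 were tested, and 2 were higher (VIM and SNAI2) and 0 lower, while ZEB1 did not pass. Among all tested rows 37.4% were higher and 11.9% lower. Over the 2 markers that reached the filter in both groups, 1 was higher (VIM) and 0 lower. SNAI2, a repressor of E-cadherin, averaged 0.757 FPKM with the vector and reached the filter only through the overexpression group, so its call is not independent of the filter. The untested TWIST1, a transcription factor, had 0.66, 0.33 and 0.67 FPKM with the vector against 0.16, 0.22 and 0.19, without overlap. FN1 (fibronectin) averaged 1.27 ± 0.532 FPKM against 0.490 ± 0.213 (SD, n = 3), and CDH2 (N-cadherin) had 0.56, 0.34 and 0.47 against 0.30, 0.04 and 0.34, so these untested markers had lower means with overexpression. The summed level of the 7 was 203.47 to 256.21 FPKM in the vector and 555.2 to 643.55 FPKM in the overexpression libraries, nearly all of it VIM.

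Markers of other cell types were not all at 0. PTPRC and CD3E (immune), KDR (endothelial), and PRSS1, CPA1, AMY2A and PNLIP (acinar) were listed at 0 in every library. CD14, a monocyte receptor, had 0, 0.48 and 0 FPKM with the vector against 0.62, 1.37 and 1.34, and CDH5 (endothelial cadherin) 0.23, 0.14 and 0.27 against 0.64, 0.55 and 0.48, both untested and without overlap. CTRB1, an acinar protease, had 0.75, 0.24 and 0.30 against 0.16, 0.15 and 0.10. The single tested rows of the immune and acinar lists were joined rows with widely used genes, EIF4A1;CD68;SENP3 and CDC42;CELA3B;CELA3A. Both passed as higher, as did 37.4% of all tested rows. Of 6 fibroblast markers 3 were tested. The collagen gene COL1A2 was lower, at 18.33, 17.58 and 18.43 against 10.39, 15.77 and 13.05 FPKM (limma adjusted p = 0.0339). COL1A1 was higher, at means of 0.583 ± 0.297 against 1.67 ± 0.280 FPKM (SD, n = 3), and reached the filter only through the overexpression group. COL3A1 ranged from 161.90 to 185.05 FPKM and did not pass as deposited, but passed as lower after median centring. Of 5 neuroendocrine markers 0 were tested, and CHGA (chromogranin A) had 0.53, 0.85 and 1.64 against 0.13, 0.34 and 0.52 FPKM. The part of all these markers in the keratin changes was not tested.

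Genes for other intermediate filaments and for the proteins that tie keratins to cell junctions made up a list of 35, of which 17 were tested. As deposited, 12 were higher and 0 lower, against 37.4% and 11.9% of all tested rows. After median centring 9 were higher and 2 lower, against 24.0% and 19.2%. Of the 17, BFSP1 and TCHP reached the filter through 1 group only, and over the other 15 the counts were 11 higher and 0 lower as deposited and 8 higher and 1 lower after centring. The median log2 change of the 17 was 0.62, beside 0.27 for all tested rows.

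Among filament proteins, VIM (vimentin, the filament of mesenchymal cells) rose from 238.11, 197.85 and 250.45 to 543.43, 553.14 and 633.62 FPKM, a log2 change of 1.34 (limma adjusted p = 0.000195). It exceeded KRT18 in every library. NES (nestin) rose by 1.08, and the nuclear lamins LMNA and LMNB2 by 0.99 and 0.72 (limma adjusted p = 0.00107, 0.000986 and 0.000631). BFSP1, a filament protein of the lens, had 0.64, 0.29 and 0.32 FPKM with the vector against 2.52, 3.40 and 3.72, and since it was tested only because of its overexpression values its call is not counted here. Among linkers, PNN (pinin, a desmosome-associated and nuclear protein) rose by 1.74, PLEC (plectin, which crosslinks filaments) by 1.13 and DSP (desmoplakin, which anchors keratins at desmosomes) by 0.80 (limma adjusted p = 0.00172, 0.000997 and 0.000821). Leaving aside BFSP1, whose call is not counted in either scaling, the filament and linker genes named as rising also passed as higher after median centring.

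Members of the linker list that did not pass as deposited included DST (dystonin), at a log2 change of -0.26 (limma adjusted p = 0.0963), named after its values were seen. After median centring DST passed as lower (limma adjusted p = 0.0128). TCHP (trichoplein, a keratin-binding protein) had 1.56, 1.05 and 1.10 FPKM with the vector against 0.71, 0.85 and 0.79. It did not pass as deposited (limma adjusted p = 0.0700) and reached the filter only through the vector group, so its lower call after median centring is not independent of the filter. The desmosomal genes DSG2 and JUP had log2 changes of 0.12 and 0.29 and did not pass (limma adjusted p = 0.346 and 0.221). DSG1, DSG3, DSG4, DSC1, DSC3, PKP1 and DES were listed at 0 in all libraries.

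**Figure D4:**
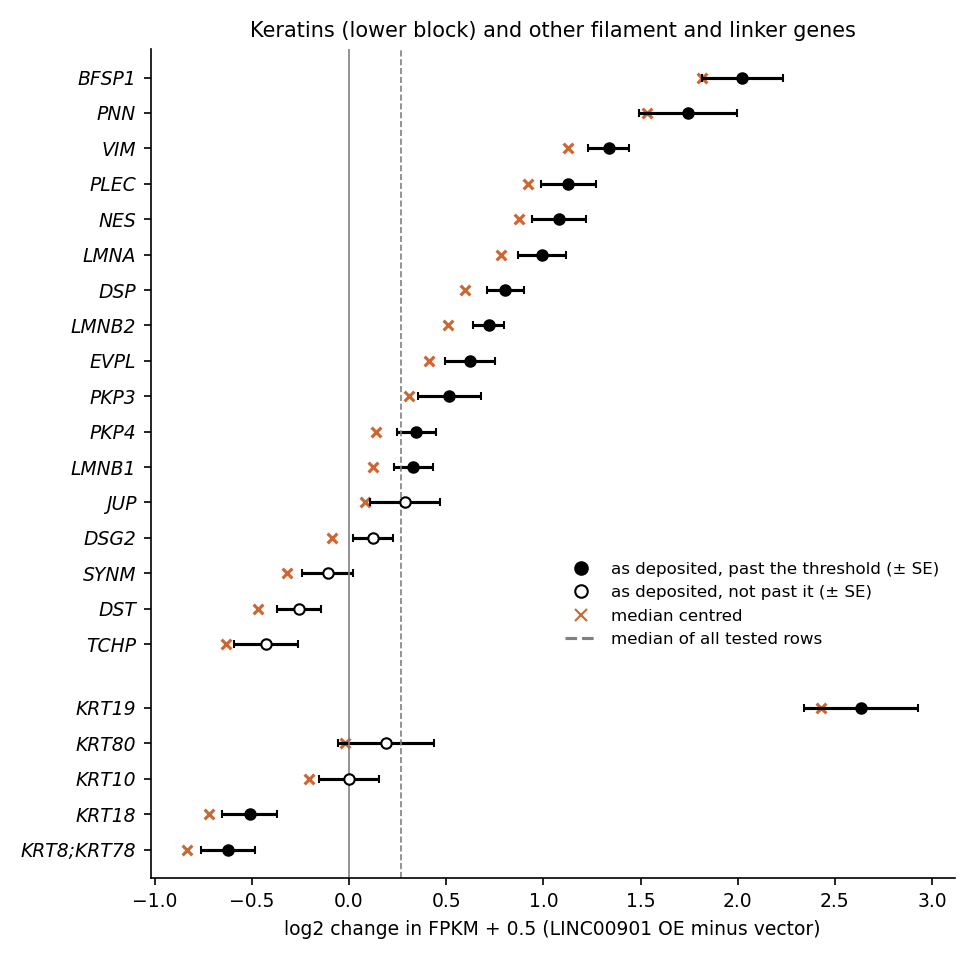
Change between the groups on the log2(FPKM + 0.5) scale (horizontal axis) for the 5 tested keratins (lower block) and the 17 tested filament and linker genes (upper block). Circles are values as deposited with their SE, filled where the limma adjusted p was under 0.05, crosses are values after median centring, and the dashed line is the median of all tested rows at 0.27. KRT18 and KRT8;KRT78 lie furthest to the left and KRT19 furthest to the right.

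The tested rows whose pattern over the 6 libraries was nearest to that of KRT8;KRT78 were IMMP1L, U2AF1 and CGAS, with root mean square differences of 0.0416, 0.0532 and 0.0539 in centred log2 values. For KRT18 they were the joined row SLC35E2B;CDK11A;SLC35E2A, GIGYF1 and DNAJB6, at 0.0615, 0.0789 and 0.0858. Among the 9694 tested rows KRT18 ranked 760th in nearness to KRT8;KRT78, at 0.239. It was the nearest of the other tested keratins, with KRT10 at rank 3087, KRT80 at 4516 and KRT19 at 9661.

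**Figure D5:**
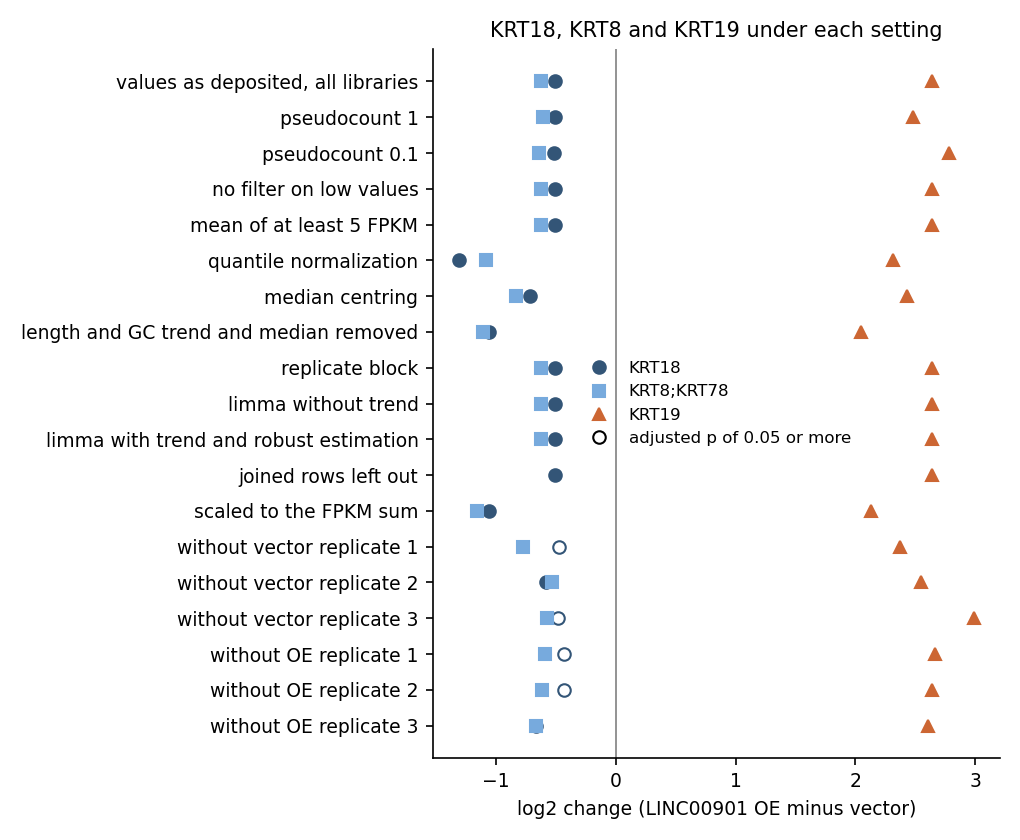
Change of KRT18, KRT8;KRT78 and KRT19 on the log2 scale (horizontal axis) for the values as deposited and for each alternative setting, 1 row per setting. Filled symbols have a limma adjusted p under 0.05 and open symbols do not. KRT19 stays between 2.05 and 2.99 and KRT8;KRT78 between -1.16 and -0.53, and KRT18 loses its call when any of 4 libraries is left out.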

How the data were processed

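The authors deposited 1 table of FPKM values per gene and library for 6 libraries, per the file headers. The build was hg19 and the tools included HISAT2, cutadapt and FastQC, per the submitters' processing notes. Tool versions and the FPKM program are not given in the sources used. No counts were used, so no count model or counting interval was possible. Values were transformed to log2(FPKM + 0.5), rows with a mean of at least 1 FPKM were kept (9694), and limma 3.58.1 (R 4.3.3) was fitted with its trend option and without a replicate block. P-values were adjusted by Benjamini-Hochberg over all tested rows, with a threshold of 0.05. The fit was also run on simulated data with independent noise, whose outcome is not reported here and is not used as support. Exact permutation tests (scipy 1.17.1) were two-sided. Alternatives changed the pseudocount, filter, scaling, variance model, threshold, replicate block or libraries used, 1 at a time, except that length and GC trends were removed together with the median. Overlaps, transcript stretches and length and GC content (known for 99.6% of tested rows) came from GENCODE 29.

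Named genes were all 10 keratins, other keratins by call and level, up to 8 called filament and linker genes by absolute change, and the 3 nearest rows to KRT8 and KRT18. TP63 and the other marker genes came from lists of cell type markers. Some items of the lists are not reported here. The keratins and lists were chosen with earlier results of these data known.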

Additional observations from a re-analysis of the deposited data

How the results depend on the processing

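KRT19 and KRT8;KRT78 kept direction and call in every alternative that tested them, and the number of keratins called stayed between 2 and 4 of those tested. The KRT18 call was lost at a threshold of 0.01 (log2 change -0.51, adjusted p = 0.0219) and without any of 4 single libraries. The KRT10 change was reversed with a pseudocount of 1 (-0.00118), quantile normalization (-0.15), median centring (-0.21), removal of the median together with length and GC trends (-0.39) and scaling to the FPKM sum (-0.46), and ranged from -0.14 to 0.10 with 1 library left out. The KRT80 change was reversed with quantile normalization (-0.0174), median centring (-0.0206), that joint removal (-0.16) and scaling to the FPKM sum (-0.31). With 1 library left out, the difference of KRT8;KRT78 from KRT18 ranged from -0.30 to 0.0489, and the change in share ranged from -0.244 to 0.0616 percentage points for KRT7, from -1.08 to 0.0121 for KRT17 and from -0.487 to 0.0212 for KRT81. The cause was not tested for these reversals.

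Of all rows, 4773 passed, 3621 higher and 1152 lower; 2881 passed at a threshold of 0.01 and 2818 with a mean of at least 5 FPKM, where only 4830 rows were tested. The split was 2331 higher and 1866 lower with median centring, 1865 and 2024 with quantile normalization, 1943 and 1953 with the median and the length and GC trends removed together, and 1155 and 3345 with scaling to the FPKM sum, an alternative added after the data were seen. That scaling moved the median row to -0.22. Replicate numbers showed no sign of pairing the libraries: deviations of same-numbered libraries correlated at -0.037, -0.0057 and -0.0050. Such correlations cannot show whether same-numbered libraries were prepared together. With the replicate block 4227 rows and the same 3 keratins passed. In the paired sign-flip test p was at least 0.25, its smallest possible value.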
